A study of Mus musculus with 6 samples.

Results

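The PGC-1 coactivators, the oestrogen-related receptors (ERR), the PPAR receptors PPARα and PPARδ and the factors NRF1 and GABPα were followed as 10 genes in left ventricles of TG and NTG mice after aortic banding (AB). They were picked by gene name in the deposited count table, as Ppargc1a, Ppargc1b, Pprc1, Esrra, Esrrb, Esrrg, Ppara, Ppard, Nrf1 and Gabpa. All 10 are protein-coding rows among the 54532 genes listed, and all 10 were among the 14774 genes with enough counts to be tested. The 3 TG mice carried the genotype labelled HINT2CTG-Myh6Cre, in which Cre driven by the Myh6 promoter, active in cardiomyocytes, opens a HINT2 transgene of human sequence behind a CAG promoter after tamoxifen (5 mg/kg per day for 7 days). The 3 NTG mice were labelled C57BL/6J, and whether they received tamoxifen or carried Cre is not given in the sources used here. All 6 were males that underwent AB, a narrowing of the aorta that overloads the left ventricle, at 8 to 10 weeks of age, and tissue was taken 4 weeks later. Poly-A selected RNA from 1 heart gave 1 library, and no sham-operated heart was analysed here, so every value describes banded hearts.

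PGC-1α, PGC-1β and PRC, the products of Ppargc1a, Ppargc1b and Pprc1, do not bind DNA themselves but dock on transcription factors and recruit the machinery that opens and transcribes their target genes. In heart muscle their main partners are the ERR, which sit at genes of the respiratory chain and citrate cycle, the PPAR, which sit at genes of fatty acid uptake and oxidation, and NRF1 and GABPα, which sit at promoters of nuclear genes for respiratory subunits and for the upkeep of mitochondrial DNA. These factors are known for setting the oxidative capacity of the working heart, and the comparison of TG with NTG hearts was set here beside 80 nuclear genes for subunits of the respiratory chain, since the study used this experiment to look for pathways that HINT2, a mitochondrial nucleotide hydrolase, moves in the overloaded heart. Among the 80, the complex I gene Ndufb1 was read from the row Ndufb1-ps, which is annotated as a bidirectional promoter lncRNA.

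The libraries held 14863568 to 17581220 counts on genes, at which the members had between 124 counts (Ppargc1b in NTG 2) and 2538 counts (Esrra in TG 3). The check of the targeted gene was uneven, and it is indirect, since the transgene has the human sequence and adds to the mouse count only those of its reads that map there. Mouse Hint2 had 793, 828 and 859 counts in the TG libraries and 545 and 559 in NTG 2 and NTG 3, while the library labelled NTG 1 had 12, which goes against its label. Its label was kept, and each member's result is given with and without it. The log2 fold change of Hint2 was 1.33 (edgeR adjusted p = 0.433) and 0.77 without NTG 1 (edgeR adjusted p = 0.0212). Levels are CPM after TMM scaling, that is, counts scaled to a common library size after a correction for composition, and fold changes are those of edgeR's quasi-likelihood fit. Calls needed a Benjamini-Hochberg adjusted p under 0.05 over all genes tested together with a log2 fold change of more than 0.5 either way. On all 6 libraries this test called 0 genes in either direction, with 1305 genes higher and 1442 lower at an unadjusted p under 0.05. DESeq2 at the same thresholds called 228 higher and 353 lower. Nothing in the labels says more of the replicates than that they are separate samples, and p-values measure the spread between them.

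**Figure D1:**
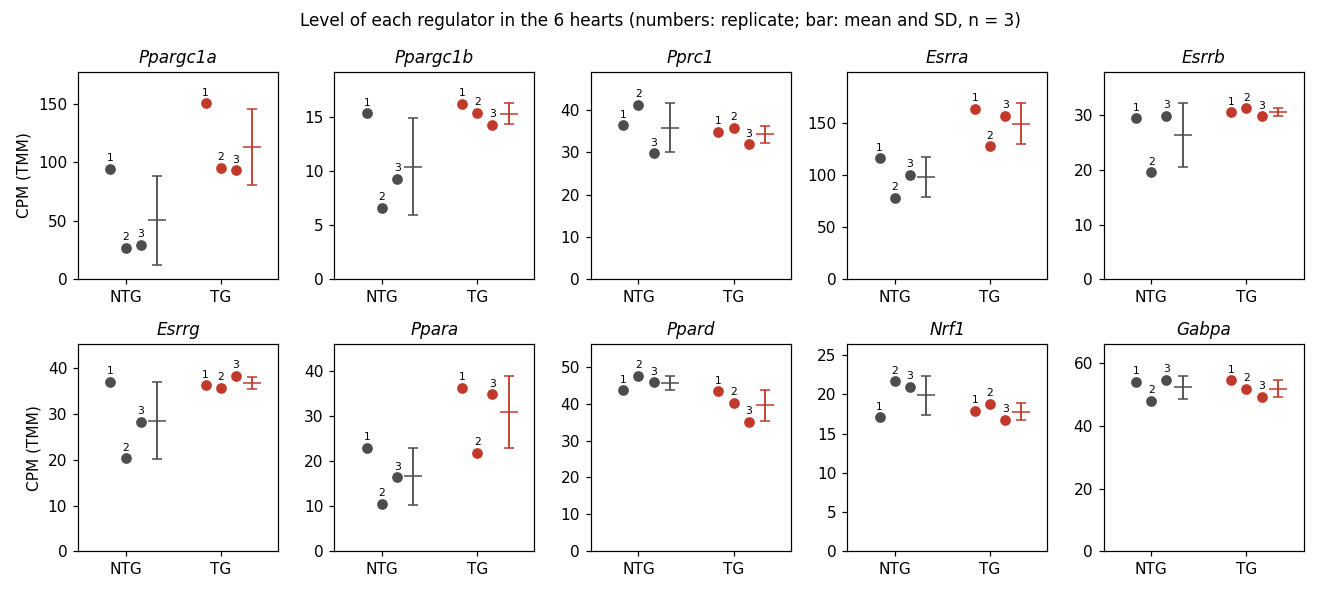
Level of the 10 regulators in CPM (linear axis from 0, TMM scaling) in the 3 NTG (grey) and 3 TG (red) libraries. Points are single hearts with their replicate number, and the bar beside them is the mean with SD. Ppargc1a, Ppargc1b, Esrra, Esrrb, Esrrg and Ppara stood lowest in NTG 2 and highest in a TG library, and of these only Esrra had groups without overlap. Pprc1, Nrf1 and Gabpa had overlapping groups with nearby means.

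None of the 3 coactivators passed edgeR or DESeq2 on all libraries, and differences between them were not tested by a model. Ppargc1a (ENSMUSG00000029167, minus strand of chromosome 5 from 51454250 to 51567726, GRCm38), the inducible coactivator of the family, measured 94.4, 26.8 and 29.5 CPM in NTG 1, NTG 2 and NTG 3 and 150.2, 95.1 and 93.2 CPM in TG 1, TG 2 and TG 3. NTG 1 therefore lay between TG 2 and TG 3, and the other NTG libraries lay far under every TG library. The means were 50.2 ± 38.3 CPM (SD, n = 3) in NTG and 112.9 ± 32.4 CPM (SD, n = 3) in TG, giving a log2 fold change of 1.17 (edgeR, standard error 0.51, adjusted p = 0.282), higher than that of 98.6% of the genes tested. This difference did not exceed the spread between hearts in edgeR or in DESeq2 (adjusted p = 0.292). Without NTG 1 the log2 fold change was 2.0 (standard error 0.25, edgeR adjusted p = 0.0204), and Ppargc1a was called. With 1 library removed at a time the value ran from 0.87 without NTG 2 to 2.0, and NTG 1 was the only library whose removal gave a call with edgeR. As in any bulk tissue, fewer cells of a type and less RNA per cell cannot be told apart in this and the following differences.

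Ppargc1b (ENSMUSG00000033871, minus strand of chromosome 18 from 61298136 to 61400431), which encodes the coactivator PGC-1β that shares many partners with PGC-1α, showed the same arrangement at a lower level. It measured 15.3, 6.58 and 9.26 CPM in the NTG libraries and 16.2, 15.4 and 14.3 CPM in the TG libraries, so that NTG 1 stood inside the TG range. In log2 the fold change was 0.56 (standard error 0.28, edgeR adjusted p = 0.318), and 0.94 without NTG 1 (standard error 0.18, edgeR adjusted p = 0.0319), where it was called. Without NTG 2 it was 0.32. Pprc1 (ENSMUSG00000055491, plus strand of chromosome 19 from 46044886 to 46072915) encodes PRC, the growth-responsive relative. Its 36.4, 41.2 and 29.7 CPM in NTG enclosed the 34.9, 35.8 and 31.9 CPM of the TG libraries. Its log2 fold change was −0.065, with an interval of 2 standard errors from −0.33 to 0.20, and −0.056 without NTG 1 (edgeR adjusted p = 0.811 and 0.844). It changed sign to 0.077 with an offset for gene length and to 0.049 without NTG 2.

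The coactivators were also set against each other per length within a library. Ppargc1a was 62.3%, 36.3% and 41.6% of the 3 coactivators together in the NTG libraries and 72.4%, 62.6% and 64.4% in the TG libraries. The groups did not overlap, although NTG 1 came close to TG 2. The mean share was 46.7 ± 13.7% (SD, n = 3) in NTG and 66.5 ± 5.20% (SD, n = 3) in TG (two-sided exact permutation test, p = 0.1, the lowest value possible with 3 hearts against 3). The share of Pprc1 was 35.6 ± 14.0% against 18.3 ± 3.11% (p = 0.1, same exact test), and that of Ppargc1b 17.7 ± 3.52% against 15.3 ± 2.10% (p = 0.5, same exact test). The 3 shares have the same total, and the CPM of Pprc1 itself overlapped between the groups. Its lower share is therefore no result separate from that of Ppargc1a. These ratios were chosen after the levels had been seen. Of 10 shares and ratios computed among members, 5 reached the smallest p of 0.1, which cannot pass a limit of 0.05 in this design.

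**Figure D2:**
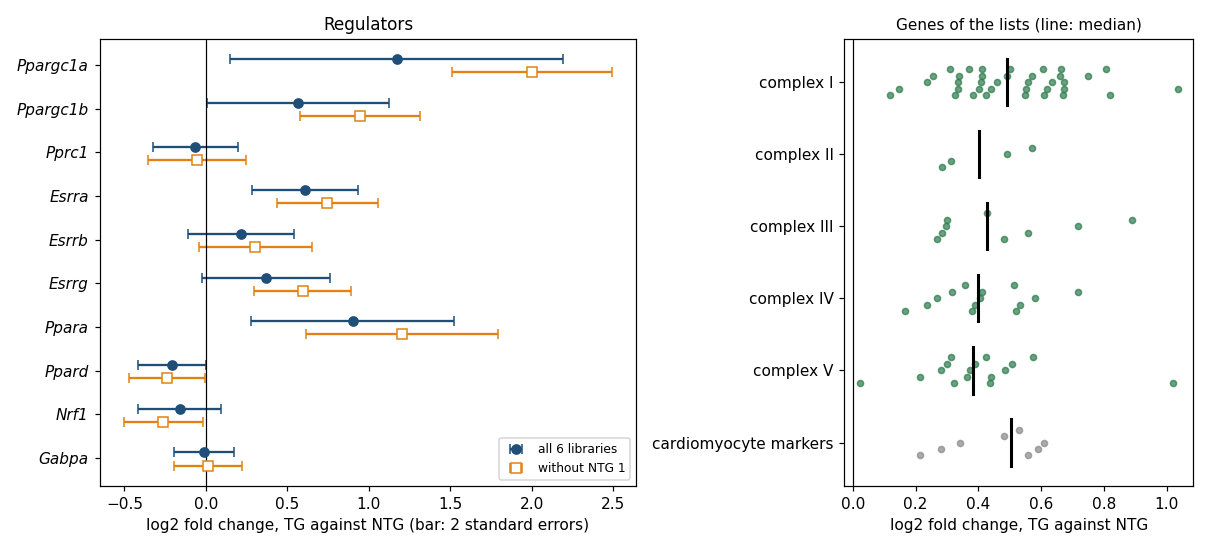
Left, log2 fold change of each regulator, TG against NTG, from edgeR with all 6 libraries (filled circles) and without NTG 1 (open squares), with bars of 2 standard errors. Right, the log2 fold changes with all libraries of 80 respiratory chain genes by complex and of 8 cardiomyocyte markers, with the median of each as a line. Ppargc1a (1.17), Ppara (0.90), Esrra (0.61) and Ppargc1b (0.56) had point estimates above the medians of the 5 complexes (0.38 to 0.49).

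Of the ERR, Esrra was the member whose TG libraries all lay above its NTG libraries. Esrra (ENSMUSG00000024955, minus strand of chromosome 19 from 6910977 to 6921813) encodes ERRα, an orphan nuclear receptor that PGC-1α coactivates and that sits at many respiratory chain genes. It measured 115.6, 77.9 and 99.9 CPM in NTG 1 to 3 and 163.4, 127.3 and 156.7 CPM in TG 1 to 3. The highest NTG library was NTG 1 and the lowest TG library was TG 2, with a gap between them. The means were 97.8 ± 19.0 CPM (SD, n = 3) in NTG and 149.2 ± 19.2 CPM (SD, n = 3) in TG. The log2 fold change was 0.61 (standard error 0.16, edgeR adjusted p = 0.196, unadjusted 0.006), an interval of 2 standard errors from 0.29 to 0.93. DESeq2 called Esrra higher (adjusted p = 0.0309), the only member it called on all libraries, where it called 1.54% of all genes tested higher and 2.39% lower. edgeR's likelihood-ratio test also called Esrra and no other member, against 1.39% of genes higher and 2.29% lower. DESeq2 kept its call of Esrra without NTG 1 or without TG 2 and lost it without TG 1, TG 3, NTG 2 or NTG 3 (adjusted p = 0.180 to 0.288, DESeq2). Of the edgeR fits that left out 1 library, the one without NTG 1 called it, at 0.75 on the log2 scale (standard error 0.15, adjusted p = 0.0370), and it was 0.47 without NTG 2.

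Esrrb and Esrrg encode ERRβ and ERRγ, relatives of ERRα of which ERRγ is known from oxidative muscle. Esrrg (ENSMUSG00000026610, plus strand of chromosome 1 from 187608791 to 188214885) measured 37.0, 20.3 and 28.3 CPM in NTG and 36.3, 35.7 and 38.3 CPM in TG. NTG 1 lay among the TG libraries, which stood close together. Its log2 fold change was 0.37 (standard error 0.20, edgeR adjusted p = 0.345) and 0.59 without NTG 1 (standard error 0.15, edgeR adjusted p = 0.0558), short of a call, and 0.17 without NTG 2, while DESeq2 without NTG 1 called it (log2 fold change 0.60, adjusted p = 0.0181). Esrrb (ENSMUSG00000021255, plus strand of chromosome 12 from 86361117 to 86521628) measured 29.4, 19.5 and 29.9 CPM in NTG and 30.5, 31.3 and 29.8 CPM in TG, with only NTG 2 apart. Its log2 fold change was 0.22 (standard error 0.16, edgeR adjusted p = 0.486) and 0.30 without NTG 1, or 0.040 without NTG 2. Per length, Esrra made up 81.3 ± 1.07% of ERR RNA in NTG and 84.1 ± 1.79% in TG (exact permutation test, p = 0.2), so most ERR RNA in these ventricles was that of Esrra in either group.

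The sequence before the start of Esrra is shown because Esrra and the respiratory chain genes stood in a similar order across the libraries, and the windows can be read for the elements that members of this group are known to bind. The 245 bases upstream of Esrra, from the RefSeq promoter table (GRCm38.p6, here and below 5′ to 3′ on the strand of the gene), hold 1 core of the NRF1 element (GCATGCGC), in capitals, whose first base is at position −34 from the RefSeq start.
Esrra upstream (chr19:6921814-6922058, minus strand): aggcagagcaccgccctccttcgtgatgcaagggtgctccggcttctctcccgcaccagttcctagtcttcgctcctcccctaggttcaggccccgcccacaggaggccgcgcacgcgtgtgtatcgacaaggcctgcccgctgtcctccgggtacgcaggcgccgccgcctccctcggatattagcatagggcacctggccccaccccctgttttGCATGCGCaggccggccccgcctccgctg
No ERR element in the spelling TNAAGGTCA and no GABP element in the spelling CCGGAAG is in this window of Esrra on either strand, which says only that these letters are not there. Windows of 250 bases before to 50 after the start were found for 9 of the 10 members, with Ppargc1b not matched. The NRF1 core was in those of Esrra and Ppara, or 22.2%, against 3.05% of the 27025 genes in the table. The GABP element was in that of Gabpa alone, at position −93, or 11.1% against 9.93%, and the ERR element was in 0 of the 9 against 1.43%. In the window of Gabpa all 250 bases before the RefSeq start lie in annotated exons.

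Of the 80 respiratory chain genes 67 were matched to such windows. The NRF1 core was in 10 of them (15%), the GABP element in 17 (25.4%) and the ERR element in 3 (4.48%). A set of 5 short stretches is shown to let these elements be compared, with the searched letters in capitals. They are from Ppara, from Ndufa8 and Sdhb, subunits of complexes I and II that hold the NRF1 core, and from Atp5g3 and Ndufb4, subunits of complexes V and I that hold the ERR element.
Ppara (chr15:85735735-85735764, plus strand): gggctcggtgGCGCATGCGCgcggactagg
Ndufa8 (chr2:36049339-36049368, minus strand): gcgcttgcgcgtcgctggagacGCATGCGC
Sdhb (chr4:140961206-140961235, plus strand): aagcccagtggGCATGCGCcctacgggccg
Atp5g3 (chr2:73911360-73911389, minus strand): ttgttacaaagTGACCTTGAgcgtcttccc
Ndufb4 (chr16:37654407-37654436, minus strand): cttcctgagccTGAAGGTCAgactcgagag
In Ppara the core occurs on both strands with an overlap, so that a palindrome of 10 letters is in capitals, and in Atp5g3 the ERR element is on the opposite strand. Bases before the RefSeq start can also lie in annotated exons of any transcript. Their number was 150 in the window of Ppara, 186 in Ndufa8, 68 in Sdhb, 85 in Ndufb4 and 0 in Atp5g3. A match may therefore lie in transcribed sequence. Ndufa8, Sdhb and Atp5g3 had log2 fold changes of 0.67, 0.57 and 0.57 and were called higher by DESeq2 (adjusted p = 0.00949, 0.0399 and 0.0378). Ndufb4 had 0.55 and was not called (DESeq2 adjusted p = 0.0552). Sdhd, the other chain gene with the ERR element, had 0.31 and was not called either (DESeq2 adjusted p = 0.296). The 10 chain genes with the NRF1 core ranged from 0.024 (Atp5l) to 0.89 (Uqcr11), and DESeq2 called 3 of them, Ndufa8, Sdhb and Uqcr11, beside 23 of the whole 80, so nothing is read from the core about these calls. These matches describe letters and were not tested for binding.

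The fitted values of the PPAR members had opposite signs, and neither member passed the test. Ppara (ENSMUSG00000022383, plus strand of chromosome 15 from 85734983 to 85802819) encodes PPARα, the lipid-activated receptor at genes of fatty acid oxidation. It measured 22.9, 10.5 and 16.4 CPM in NTG 1 to 3 and 36.2, 21.8 and 34.8 CPM in TG 1 to 3. TG 1 and TG 3 lay above all NTG libraries, and TG 2 lay just under NTG 1. The means were 16.6 ± 6.24 CPM (SD, n = 3) in NTG and 30.9 ± 7.95 CPM (SD, n = 3) in TG. The log2 fold change was 0.90 (standard error 0.31, edgeR adjusted p = 0.217, DESeq2 adjusted p = 0.0588), which passed neither test. Without NTG 1 it was 1.2 (standard error 0.30, edgeR adjusted p = 0.0659), where DESeq2 called it (1.21, adjusted p = 0.00119). DESeq2 also called it without TG 2 (adjusted p = 0.0174), and without NTG 2 the log2 fold change was 0.65.

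Ppard (ENSMUSG00000002250, plus strand of chromosome 17 from 28232700 to 28301474) encodes PPARδ, the more widely expressed receptor of this group. Its 43.6, 47.5 and 45.7 CPM in NTG all lay above its 43.3, 40.2 and 35 CPM in TG, with NTG 1 and TG 1 close together. The log2 fold change was −0.21 (standard error 0.10, edgeR adjusted p = 0.313), which did not pass the test, −0.24 without NTG 1 (edgeR adjusted p = 0.223), −0.13 without TG 3 and −0.066 with an offset for gene length. With library size scaling it was −0.29 (edgeR adjusted p = 0.242). Per length, the ratio of Ppara to Ppard was 1.03, 0.432 and 0.702 in the NTG libraries and 1.64, 1.06 and 1.95 in the TG libraries. The TG ratios all lay above the NTG ratios, TG 2 narrowly above NTG 1, with means of 0.72 ± 0.30 and 1.55 ± 0.449 (SD, n = 3, exact permutation test, two-sided, p = 0.1). Ppara RNA per length thus exceeded that of Ppard in every TG library and in NTG 1.

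The DNA-binding factors NRF1 and GABPα, which act at promoters of nuclear respiratory genes, had overlapping levels in the groups. Nrf1 (ENSMUSG00000058440, plus strand of chromosome 6 from 30047988 to 30153458) measured 17.1, 21.7 and 20.9 CPM in NTG and 17.9, 18.8 and 16.7 CPM in TG. Its log2 fold change was −0.16 (standard error 0.13, interval of 2 standard errors from −0.42 to 0.096, edgeR adjusted p = 0.513). Here NTG 1 lay with the TG libraries, and without it the value was −0.26 (edgeR adjusted p = 0.210), with no overlap between the groups, and without NTG 2 it was −0.096. With an offset for gene length it was −0.0012, and with library size scaling −0.25. Gabpa (ENSMUSG00000008976, plus strand of chromosome 16 from 84834925 to 84863779) measured 54.1, 48.1 and 54.8 CPM in NTG and 54.5, 51.9 and 49.3 CPM in TG. Its log2 fold change of −0.011 had an interval of 2 standard errors from −0.20 to 0.17 (edgeR adjusted p = 0.961), the value nearest to 0 among the members. Its sign turned with the offset for gene length (0.11) and without NTG 1 (0.011), TG 3 or NTG 3.

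Counted over the members, the fitted level was higher in TG for 6 and lower for 4, and their median log2 fold change was 0.29, where the median of all genes tested was −0.0081. At an unadjusted p under 0.05 there were 2 members higher (Esrra and Ppara) and 0 lower, where 8.83% of all genes tested were higher and 9.76% lower at that limit. The libraries did not overlap for 1 member with TG above (Esrra) and for 1 with TG below (Ppard), while 11.2% and 12.3% of all genes did so in these directions. Without NTG 1, edgeR called 3 of the 10 higher (Ppargc1a, Ppargc1b and Esrra), against 2.67% of the 15136 genes tested then, and 0 lower against 2.85%. In the same 5 libraries the groups did not overlap for Ppargc1a, Ppargc1b, Esrra, Esrrg and Ppara with TG above, against 23.4% of all genes, and for Ppard and Nrf1 with TG below, against 23.6%. Across the 24 alternative fits the direction was kept each time by 8 members, and Pprc1 and Gabpa were the ones that turned.

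In order of level, which was compared between genes as CPM per kilobase of gene length, Esrra came first by a wide margin in either group, at 38.5 ± 7.46 in NTG and 58.7 ± 7.56 in TG (SD, n = 3). In NTG hearts Gabpa (9.20 ± 0.65), Ppargc1a (7.62 ± 5.81) and Ppard (6.07 ± 0.26) followed. Gabpa lay above Ppard, and Ppard above Pprc1, in every NTG library, while Ppargc1a spread from 4.06 in NTG 2 to 14.3 in NTG 1 and could not be placed against either. Pprc1 (4.76), Esrrg (4.6), Esrrb (4.35) and Ppara (4.32) did not differ beyond their spread, and Ppargc1b (2.60) and Nrf1 (1.94) closed the order with overlapping ranges. In TG hearts Ppargc1a followed Esrra at 17.1 ± 4.91, above Gabpa (9.13 ± 0.46) in every library. Gabpa and Ppara (8.06 ± 2.07) overlapped there, and Esrrg (5.92), Ppard (5.26) and Esrrb (5.05) came next, each overlapping its neighbour. Pprc1 (4.55 ± 0.27), Ppargc1b (3.82 ± 0.24) and Nrf1 (1.73 ± 0.10) closed the order and did not overlap in TG hearts. These levels rest on 1 length per gene as listed in the table, whatever isoforms the hearts used.

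**Figure D3:**
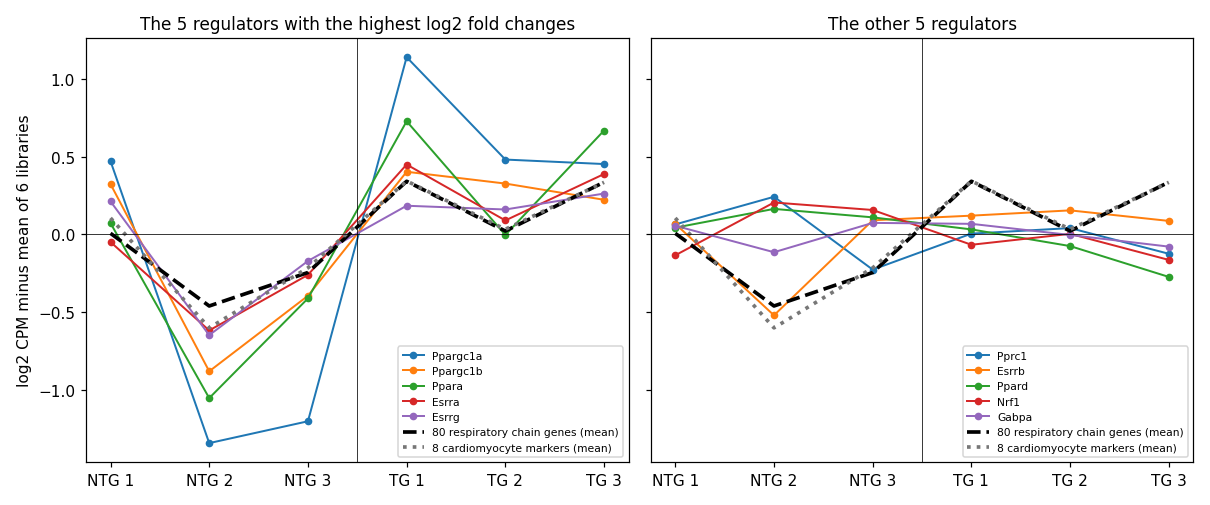
Level of each regulator in each library as log2 CPM minus its mean over the 6 libraries (y axis, log2 scale), beside the mean of 80 respiratory chain genes (dashed) and of 8 cardiomyocyte markers (dotted). Lines only join the points, since replicates have no order. Esrra (red, left) lay near the dashed line and near the dotted line in every library, from −0.62 in NTG 2 to 0.45 in TG 1, while Ppargc1a spanned −1.34 to 1.14.

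The 80 nuclear respiratory chain genes were all fitted higher in TG hearts. Their median log2 fold change was 0.42 (0.56 without NTG 1 and 0.31 without NTG 2), 47 were higher and 0 lower at an unadjusted p under 0.05, and DESeq2 called 23 higher. At that limit 8.83% of all genes tested were higher and 9.76% lower, and DESeq2 called 1.54% higher. edgeR called 0 of the 80 on all libraries and 30 higher without NTG 1, against 2.67% of all genes then. Across the libraries the mean of the chain, centred on the 6 libraries in log2 CPM, was 0.0068, −0.46 and −0.25 in NTG 1 to 3 and 0.34, 0.022 and 0.34 in TG 1 to 3. Esrra followed it at −0.049, −0.62 and −0.26 in NTG and 0.45, 0.090 and 0.39 in TG. The mean of the 8 cardiomyocyte markers was 0.11, −0.60 and −0.22 in NTG and 0.34, 0.033 and 0.34 in TG. Esrra thus lay near these markers as well as near the chain. Among 13742 genes with a mean of at least 1 CPM, likeness to a member was measured as the root mean square difference of these centred values over the 6 libraries, which share their scaling. The 3 genes most like Esrra were Ndufv1, a complex I subunit that binds NADH (difference 0.023 on the log2 scale), Slc25a34, a mitochondrial carrier family gene (0.026), and Cox5b, a complex IV subunit (0.036). Of the 137 genes nearest to Esrra (the nearest 1%), 26 were respiratory chain genes, or 32.5% of the chain list. The same count was 5 for Esrrg, 3 for Ppara, 1 for Ppargc1b and 0 for the other 6 members. Nearness to the cardiomyocyte markers was not counted in this way.

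The other members had larger median differences from the chain. The median difference from the 80 chain genes was 0.13 for Esrra, against 0.42 from all candidates, and 0.69 for Ppargc1a, against 0.95. For Esrrg it was 0.17 against 0.38, for Esrrb 0.22 against 0.30, for Ppargc1b 0.27 against 0.51 and for Ppara 0.34 against 0.65, so these too lay nearer to the chain than to genes at large. For Gabpa it was 0.29 against 0.21, for Pprc1 0.38 against 0.26, for Nrf1 0.42 against 0.25 and for Ppard 0.41 against 0.25, so the latter 4 lay farther from the chain than from genes at large. The genes most like Ppargc1a were Mycn, a Myc family transcription factor (0.20), Gm45670, an antisense gene (0.21), and Ky, a muscle gene (0.22). Those most like Ppara were Sstr4, a somatostatin receptor, Car14, a carbonic anhydrase, and Yjefn3, each at 0.11. Sstr4, with at most 2.60 CPM, is a low gene, and Gm45670 is uncertain because the strand setting of the counting is not given in the sources used here.

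Expressed per 1000 CPM of the summed respiratory chain genes of the same library, Esrra was 3.45, 3.31 and 3.55 in NTG and 3.95, 3.84 and 3.82 in TG. These values varied little within a group and did not overlap, with means of 3.44 ± 0.12 and 3.87 ± 0.068 (SD, n = 3), 1.13 times as high in TG (exact permutation test, two-sided, p = 0.1). Relative to the chain, Ppargc1a was 1.75 times and Ppara 1.39 times as high in TG, with overlapping groups (p = 0.2 for each, same exact test). Gabpa per 1000 CPM of chain was 1.61, 2.04 and 1.95 in NTG and 1.32, 1.57 and 1.2 in TG, without overlap, or 0.73 times as high in TG (p = 0.1, same exact test). The CPM of Gabpa itself overlapped (log2 fold change −0.011), while the chain genes were fitted higher. Ppargc1b was 1.13 times as high with overlap, Ppard was 0.63 times as high without overlap, Nrf1 0.65 times, Pprc1 0.69 times, Esrrb 0.87 times and Esrrg 0.97 times, the last 4 with overlapping groups. The summed chain ran from 23569 CPM in NTG 2 to 41390 CPM in TG 1.

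**Figure D4:**
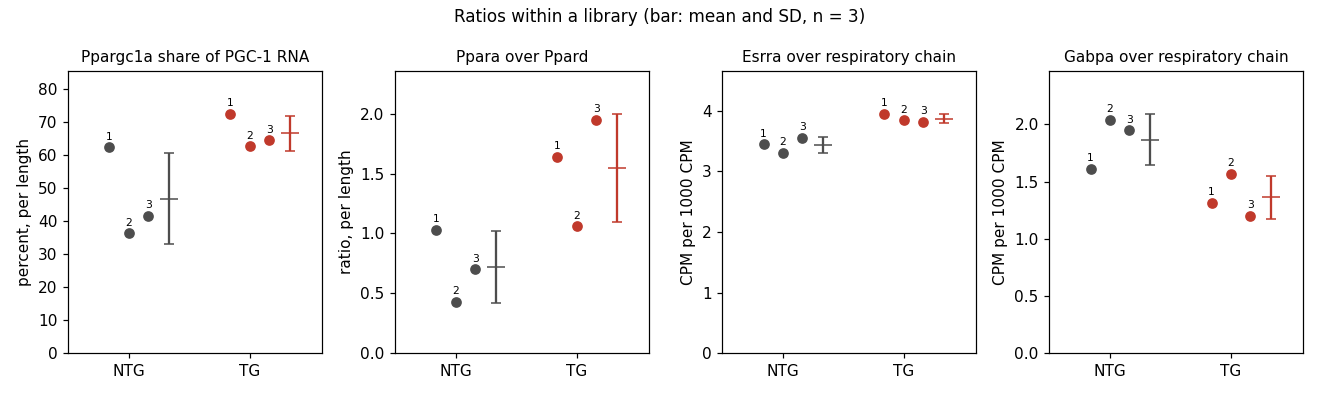
Within-library ratios in NTG (grey) and TG (red), with linear axes from 0, replicate numbers at the points and bars of mean and SD (n = 3). From left, Ppargc1a as a percent of the 3 PGC-1 coactivators per length, Ppara over Ppard per length, and Esrra and Gabpa per 1000 CPM of the 80 respiratory chain genes. The groups did not overlap in any of these 4 panels, with Esrra per chain CPM at 3.31 to 3.55 in NTG and 3.82 to 3.95 in TG. The panels were chosen after the values had been seen, and many of the other ratios overlapped. The CPM of Gabpa itself overlapped between the groups, with a log2 fold change of −0.011.

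Markers of cell types were read beside the members, and edgeR called 0 of them on all libraries. At an unadjusted p under 0.05, 8.83% of all genes tested were higher and 9.76% lower, and DESeq2 called 1.54% higher and 2.39% lower. All 8 cardiomyocyte markers were fitted higher in TG hearts (median log2 fold change 0.50), with 2 at an unadjusted p under 0.05 (Myl2 and Tnni3, with Myl3 next), and their summed level was 21126 to 35776 CPM in NTG and 34471 to 42698 CPM in TG, with NTG 1 above TG 2. All 8 fibroblast markers were lower (median −0.52, 5 at an unadjusted p under 0.05, led by Dcn, Col3a1, Col1a2 and Col1a1, of which DESeq2 called all but Col3a1 lower), summing to 3939 to 7485 CPM in NTG and 2308 to 3488 CPM in TG. All 6 macrophage markers were lower (median −0.60, 3 at that limit, Csf1r, Mrc1 and Cd68, with summed levels of 249.6 to 532.3 CPM in NTG and 214.2 to 260.1 CPM in TG, which overlapped), as were all 5 red blood cell markers (median −1.05, 5 at that limit, led by Hbb-bs, Hba-a1, Alas2 and Hbb-bt, which DESeq2 called lower). Without NTG 1 edgeR called 1 cardiomyocyte marker higher and 1 fibroblast, 2 macrophage and all 5 red blood cell markers lower, against 2.67% of all genes called higher and 2.85% lower. NTG 2 was lowest in the cardiomyocyte sum and highest in the fibroblast, macrophage and red blood cell sums. The part of these markers in the members' differences was not tested.

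Of the remaining markers, endothelial genes had 4 of 6 higher (median 0.11, Kdr, Emcn and Tie1 first by p) and smooth muscle and pericyte genes 3 of 5 (median 0.042, Acta2, Myh11 and Tagln first), of which DESeq2 called Myh11 higher. Among adipocyte markers only Cidea, which heart muscle also expresses, had enough counts to be tested (0.053), and Lep was at 0 in every library. The atrial markers were uneven among libraries, with Myl7 at 0 to 19.5 CPM in NTG and 1.59 to 64.4 CPM in TG, and 0 of 4 passed an unadjusted p of 0.05. Their median log2 fold change was 1.52, and 5.63 without NTG 1, where the remaining NTG libraries held only 0 to 3 counts of Myl7 and 1 of Sln each, too few to fix a fold. Nppa, a gene of overloaded ventricles too, had a log2 fold change of −1.44, Sln 1.85 and Myl7 1.96. Myl2, the light chain of ventricular muscle, was abundant in all 6 libraries, with at least 2718 CPM.

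Per 1000 CPM of the 8 cardiomyocyte markers, Esrra was 3.46 ± 0.23 in NTG and 3.78 ± 0.072 in TG (SD, n = 3), 1.09 times as high, each TG value exceeding each NTG value (two-sided exact permutation test, p = 0.1). On this scale the gap between the groups was narrow, from 3.688 in NTG 2 to 3.694 in TG 2. Ppargc1a was 1.73 times and Ppara 1.36 times as high (p = 0.2 for each, same exact test), while Ppard and Gabpa were 0.60 and 0.70 times as high without overlap (p = 0.1 for each, same exact test). For Gabpa too the gap was narrow, from 1.511 in NTG 1 to 1.506 in TG 2. The other 5 overlapped (p = 0.2 to 0.5, same exact test), with Ppargc1b at 1.10, Esrrg at 0.95, Esrrb at 0.84, Pprc1 at 0.66 and Nrf1 at 0.62 times. The chain itself was 1009 ± 94.2 per 1000 CPM of cardiomyocyte markers in NTG and 976 ± 18.5 in TG (p = 0.8, same exact test). Gene length also moved with the comparison. Over the 919 genes under 1000 bases the median log2 fold change was 0.15, over the 2411 genes beyond 8000 bases it was −0.056, and the members had a median length of 6128 bases against 1631 for the chain.

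Among 32 partners and modulators of these regulators (RXR, thyroid hormone receptors, corepressors, kinases and others), 23 were higher and 9 lower, with a median log2 fold change of 0.16. This median was 0.29 with the offset for gene length (29 higher, 3 lower) and 0.075 with library size scaling (20 higher, 12 lower). At an unadjusted p under 0.05 there were 7 higher and 0 lower, where 8.83% of all genes tested were higher and 9.76% lower. Thra, which encodes thyroid hormone receptor α, measured 58.8, 51.5 and 55.9 CPM in NTG and 86.5, 73.3 and 76.5 CPM in TG, without overlap. Its log2 fold change was 0.51 (standard error 0.10, edgeR adjusted p = 0.196), and DESeq2 called it higher (adjusted p = 0.00729), the only one of the 32. Flcn, the gene of folliculin, a regulator of nutrient and AMPK signalling, and Rxrb, a retinoid X receptor that pairs with PPAR, came next at 0.32 and 0.33, with TG above NTG in all libraries. Neither passed the adjustment.

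Of 28 PPAR target genes 27 could be tested, Fgf21 being the exception, and 19 were higher and 8 lower, with a median log2 fold change of 0.37 (0.22 without NTG 2). edgeR called 3 of the 27 higher without NTG 1, where it called 2.67% of all genes higher, and 0 on all libraries. At an unadjusted p under 0.05 there were 8 higher and 2 lower, where 8.83% of all genes tested were higher and 9.76% lower. Acot1, an acyl-CoA thioesterase, measured 2.59, 0.797 and 0.868 CPM in NTG and 7.72, 3.47 and 6.30 CPM in TG, or 2.06 on the log2 scale of the fold change (standard error 0.51, edgeR adjusted p = 0.196). It shares similar sequence with Acot2, so its low counts are uncertain. Acaa2, a thiolase of mitochondrial fatty acid oxidation, measured 329.7, 168.1 and 193.7 CPM in NTG and 589.7, 364.9 and 530.6 CPM in TG, or 1.10 on that scale (standard error 0.29, edgeR adjusted p = 0.196). DESeq2 called both higher (adjusted p = 0.00475 and 0.00533). Acadvl, the very long-chain acyl-CoA dehydrogenase, came next by p at 0.61. The list was not uniform. Plin2, a lipid droplet coat gene, and Pdk4, a brake on glucose oxidation, had all TG libraries under all NTG libraries at log2 fold changes of −0.27 and −0.40 (edgeR adjusted p = 0.231 and 0.255). So had Cpt1a, the entry enzyme of mitochondrial fatty acid oxidation, at −0.26 (edgeR adjusted p = 0.332). These were 3 of the 27, and another 3 had TG above without overlap. Of all genes tested 12.3% lay below and 11.2% above in this way, so nothing is read from these counts about the list. The lowest value was that of Angptl4, an inhibitor of lipoprotein lipase, at −1.30 (edgeR adjusted p = 0.293), with 10.7, 60.3 and 36.3 CPM in NTG and 10.2, 13.4 and 20.1 CPM in TG, where NTG 1 lay among the TG libraries.

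Of 17 ERR target genes outside the respiratory chain, 16 were higher and 1 lower (Pdk4, which the PPAR list also holds), with a median log2 fold change of 0.36 (0.20 without NTG 2), and 6 were higher and 1 lower at an unadjusted p under 0.05. At that limit 8.83% of all genes tested were higher and 9.76% lower, here and for the next list. Idh3b, Fh1 and Slc25a4 came first, the former a pair of citrate cycle enzymes and the last the adenine nucleotide carrier of heart, at 0.52, 0.53 and 0.58. DESeq2 called Slc25a4 alone (adjusted p = 0.0337). Of 11 NRF1 and GABP target genes, 9 were higher and 2 lower, with a median of 0.18, and 2 passed an unadjusted p of 0.05, Tomm20, an import receptor of the outer membrane (0.33), and Alas1, the first enzyme of haem synthesis (0.43). Cycs, cytochrome c, followed at 0.36, and DESeq2 called 0 of the 11. Tfam, the packaging factor of mitochondrial DNA, was 38.2, 33.0 and 34.0 CPM in NTG and 40.0, 37.8 and 41.5 CPM in TG, with overlap (0.18). The median of this list moved to 0.30 with the offset for gene length. The lists share genes, namely Acadm and Pdk4 of the PPAR and ERR lists and Cycs of the last 2 lists.

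Among the 13 subunits encoded in mitochondrial DNA, whose transcription is nuclear-controlled through Tfam and its partners, 12 were higher and 1 lower, with a median of 0.45. edgeR called 3 of them higher without NTG 1, and also 2 each of the partners and of the ERR target genes, against 0 on all libraries and 2.67% of all genes tested without NTG 1. The median was 0.71 without NTG 1, 0.27 without TG 1 and 0.29 without NTG 2. With all libraries 5 were higher at an unadjusted p under 0.05, and DESeq2 called mt-Co3, mt-Atp8, mt-Atp6 and mt-Co2. At that limit 8.83% of all genes tested were higher, and DESeq2 called 1.54% higher. mt-Co3, which encodes a complex IV subunit, measured 265.6, 248.9 and 226.8 CPM in NTG and 1239, 1280 and 2468 CPM in TG (log2 fold change 2.75, standard error 0.29, edgeR adjusted p = 0.196). The far more abundant mt-Co1 had 0.35 and overlapping groups, so subunits of 1 genome differed widely from each other. These short genes have near-identical nuclear copies, and how reads mapping to several places were counted is not given in the sources used here.

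The complex medians of 0.38 to 0.49 were 0.27 to 0.38 without NTG 2, with complex II going from 0.40 to 0.27 and complex III from 0.43 to 0.27, and 0.53 to 0.61 without NTG 1. By complex, the first 3 genes by p were Ndufs6, Ndufa2 and Ndufa13 for complex I (1.04, 0.82 and 0.66), Sdhb, Sdha and Sdhd for complex II (0.57, 0.49 and 0.31) and Uqcr11, Uqcrq and Uqcrc1 for complex III (0.89, 0.72 and 0.56). They were Cox5b, Cox7a1 and Cox4i1 for complex IV (0.58, 0.72 and 0.52) and Atp5g3, Atp5g1 and Atp5j for complex V (0.57, 0.51 and 0.49). DESeq2 called these higher except Sdha, Sdhd, Uqcrc1, Cox4i1 and Atp5j, and in complex V it also called Atp5e (1.02), whose 83.4 CPM in NTG 1 stood apart from 215.5 and 235.9 CPM in NTG 2 and NTG 3. The log2 fold change of Esrra (0.61) lay inside the range of these genes, and that of Ppargc1a (1.17) lay above all 80 chain genes, of which Ndufs6 was the highest.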

How the data were processed

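Left ventricular poly-A selected RNA of 3 TG and 3 NTG mice was sequenced 4 weeks after AB. The values the authors deposited are raw read counts per gene, counted with featureCounts, 1 column per heart, neither normalized nor pooled. The submitters' processing notes name HISAT2, DESeq2 and the build GRCh38, although samples and gene identifiers are mouse. Of the 54532 genes listed, 54409 are in GENCODE mouse release M21 (GRCm38), and 98.3% of these have identical positions there, as do all 10 members, so positions are on GRCm38. The strand setting and the handling of reads mapping to several places are not given in the sources used here. Gene names turned into dates, 27 in all, were restored from that annotation. Columns were assigned to samples by label, which left 0 columns over.

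The comparison was fitted with edgeR 4.0.16 under R 4.3.3 (TMM, filterByExpr by group, robust glmQLFit and glmQLFTest), using all 6 libraries, no covariate and Benjamini-Hochberg adjustment over the 14774 genes tested. Standard errors are the log2 fold change divided by the square root of F, and intervals span 2 of them. Levels are TMM-scaled CPM, divided by the gene length in the table where genes are compared. Centred log2 CPM has a prior count of 2. Single values were compared by an exact two-sided permutation test, whose smallest p with 3 against 3 is 0.1. Alternatives were RLE and library size scaling, no filter or at least 10 counts in every library, DESeq2 1.42.0, limma-voom (limma 3.58.1), the likelihood-ratio test, robust = FALSE, a length offset (loess of span 0.3), mitochondrial genes left out, a replicate block with and without that offset, and each library left out in turn. DESeq2 with each library left out was added after values were seen. The steps were tested on simulated counts.

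The members and lists were chosen with earlier results of these data known, and the target and marker lists were recalled from textbook knowledge. All 10 members were named. Of each other list the 3 genes with the smallest unadjusted p were named, with any gene called by either tool in a list of up to 35 genes, and the 3 genes most like Ppargc1a, Esrra and Ppara. Ratios and shares within a library were chosen after the levels were seen, as were further genes named for single values, namely Tfam, Plin2, Pdk4, Cpt1a, Angptl4, mt-Co1 and the genes named for their promoters. Promoter windows were searched on both strands for exact letters. No pair of libraries agreed within sampling noise, and counting error was not separated from the spread between hearts. FPKM values and the authors' comparisons were not used here, and no protein sequence was searched.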

Additional observations from a re-analysis of the deposited data

How the results depend on the processing

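How many genes were called turned on the test, the low-count filter and 1 library. Against 0 genes, the fit with no low-count filter called 232, DESeq2 581, the likelihood-ratio test 545 and the gene length offset 1, while RLE or library size scaling, limma-voom, a minimum of 10 counts in every library, robust = FALSE and leaving out mitochondrial genes called 0. Leaving out 1 library gave 0 to 836 genes with edgeR and, with DESeq2, 1773 without NTG 1, 778 without TG 2, 182 without TG 1, 168 without NTG 3, 126 without NTG 2 and 99 without TG 3. The highest edgeR count was also that without NTG 1. The cause was not tested. Against 0 members called, no low-count filter, DESeq2 and the likelihood-ratio test each called 1 (Esrra), and leaving out 1 library gave 0 to 3 with edgeR and 0 to 5 with DESeq2.

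The labels do not say whether replicate numbers pair the hearts. Libraries of the same number had correlations of deviations of 0.079, 0.17 and −0.25. Those of different numbers ran from −0.25 to 0.17, so these few values cannot decide whether hearts were paired. With the replicate block 231 genes and 2 members (Esrra and Ppara) were called, and with the block and the length offset 584 genes and 3 members (also Ppargc1a).

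The members kept their direction in all 24 alternatives, except Pprc1 and Gabpa. Pprc1 (−0.065) turned to 0.077 with the length offset, 0.084 with this and the block, and 0.049 and 0.052 without NTG 2 (edgeR and DESeq2), within −0.18 to 0.049 over the edgeR fits that left out 1 library. Gabpa (−0.011) turned to 0.11 with the length offset, with and without the block, and with edgeR without NTG 1, NTG 3 or TG 3, where leaving out 1 library gave −0.070 to 0.024. With DESeq2 it was 0.019, 0.030 and 0.031 without these libraries. The offset moved the median of all genes to 0.098 and library size scaling moved it to −0.093. The median of the respiratory chain list stayed between 0.31 and 0.56 in the 18 alternatives run for it. With the length offset Nrf1 (−0.16) came to −0.0012 and Ppard (−0.21) to −0.066. Library size scaling moved them the other way, to −0.25 and −0.29, and moved Pprc1 to −0.15 and Gabpa to −0.094.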
